A study of Drosophila melanogaster with 6 samples.

Results

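Aminoacyl-tRNA synthetases, the enzymes that load each tRNA with its amino acid, were encoded by 35 of the 14026 genes in the table of the adult midgut of Drosophila melanogaster. Members were taken by gene symbol, as an amino acid code followed by RS, and the symbol alone divided them into 20 cytosolic enzymes and 15 mitochondrial enzymes, whose symbols end in -m. All 35 carry the same symbol in the Ensembl annotation of build BDGP6.54, and no other symbol there follows the pattern. The midguts came from wild type Oregon-R flies in 3 groups of 2 libraries made from total RNA. Mock day 0 flies were 4 to 5 days old and had received sucrose. Pe day 0 flies had the same age and had received a treatment that the labels call Pe and do not spell out. Pe day 3 flies were 7 to 8 days old and carry the Pe label as well, and the labels name no sucrose group of that age, so treatment, day and age cannot be told apart in Pe day 3 against Mock. Whether both libraries of a group came from separate dissections is not in the labels, and p-values therefore hold for the spread of these libraries alone, which can be technical.

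Each synthetase recognises 1 amino acid and the tRNAs that carry it, and joins them at the cost of ATP. Protein synthesis in the cytosol and on the ribosomes inside mitochondria draws on separate pools of tRNA, so most amino acids need a cytosolic and a mitochondrial enzyme, and nuclear genes encode both. Part of the cytosolic enzymes of animals are held together with the scaffold proteins AIMP1, AIMP2 and AIMP3 in a multi-synthetase complex. The midgut epithelium makes and secretes digestive enzymes throughout adult life, and it is rebuilt from stem cells after damage.

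The deposited table gives for each gene a mean over all libraries and the comparisons of both Pe groups with Mock, without values per library, so whether the libraries of 2 groups overlap cannot be seen. Group means below were recovered from those values on the authors' scale of normalized counts, with a standard error from the model, and rest on an estimated 17600000 to 20100000 reads per library. Its header leaves the groups unnamed, and the comparisons were assigned to day 0 and day 3 by the order of the groups in its title, on which all directions depend. The sum of all normalized counts was lower at Pe day 0 than in Mock. With library totals as the scale, every log2 fold change at Pe day 0 against Mock is therefore higher by 0.67, and those of Pe day 3 against Mock by 0.03. Where this changes a call, both are given. Uncalled values below 0 but closer to it than these shifts also change sign, and not all of those are named.

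Cytosolic synthetase transcripts were several times as abundant as mitochondrial ones. Per kilobase of the longest annotated transcript, the median cytosolic gene stood at 753 normalized counts in Mock and the median mitochondrial gene at 94.5, a ratio of 7.97. That ratio of medians was 5.95 at Pe day 0 and 6.96 at Pe day 3. AspRS, the aspartate enzyme, had the highest count of all members, at 6200 ± 312 normalized counts (SE, n = 2 libraries) in Mock, 7231 ± 360 at Pe day 0 and 6105 ± 307 at Pe day 3. Its exons share 63.9% of their bases with an antisense RNA gene on the opposite strand, asRNA:CR45141, and since the labels' library kit does not mark strand, reads of both cannot be told apart. MetRS, the methionine enzyme, was the lowest cytosolic member in Mock at 888 ± 61.4 normalized counts. Among mitochondrial members AspRS-m (1013 ± 56.5 in Mock) and PheRS-m (986 ± 58.8) stood highest, and GluRS-m (87.0 ± 12.3) lowest. PheRS-m was also the member whose level came closest to its cytosolic counterparts: per kilobase, alpha-PheRS was 1.16 times and beta-PheRS 1.10 times as high in Mock, against 18.8 times for AsnRS over AsnRS-m. As a share of all counts the cytosolic genes together held 0.207% in Mock, 0.362% at Pe day 0 and 0.188% at Pe day 3. The mitochondrial genes held 0.0221%, 0.0454% and 0.0228%.

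**Figure D1:**
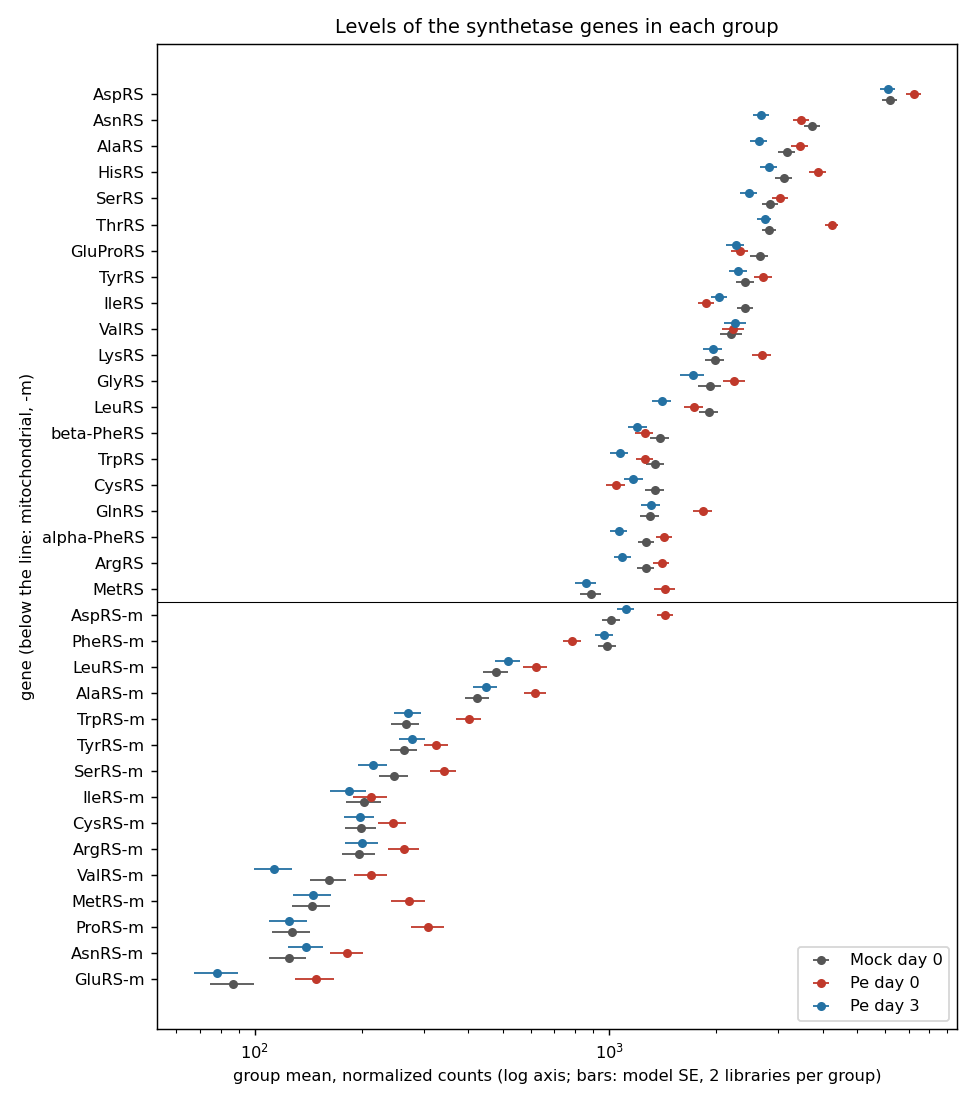
Group means of the 35 synthetase genes in normalized counts (log axis), with the model's standard error as bars, for Mock day 0, Pe day 0 and Pe day 3 (2 libraries each), cytosolic genes above the line and mitochondrial genes below it. AspRS lies at 6200 in Mock and GluRS-m at 87.0, and the Pe day 0 points of MetRS, ThrRS, ProRS-m and MetRS-m lie to the right of the other groups.

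The first comparison asked which synthetase genes differed right after Pe from sucrose at the same age. Cytosolic enzymes went both ways: 5 of 20 were higher and 2 lower in the authors' deposited table at an adjusted p under 0.05 (the authors' DESeq2 Wald test with Benjamini-Hochberg adjustment), while 23.0% of all 10393 genes tested were higher and 23.6% lower. Their median log2 fold change was 0.13, beside 0.03 over all genes tested. ThrRS, the threonine enzyme, had 2824 ± 127 normalized counts in Mock, 4249 ± 185 at Pe day 0 and 2744 ± 124 at Pe day 3. Pe day 0 stood above the other groups, and the log2 fold change against Mock was 0.59 (SE 0.09, adjusted p = 5.24e-10) in the authors' deposited table. MetRS rose from 888 ± 61.4 in Mock to 1435 ± 94.4 at Pe day 0, with 857 ± 59.2 at Pe day 3. Its change of 0.69 (SE 0.14, adjusted p = 2.41e-06) was the largest of a cytosolic enzyme in the authors' deposited table. The glutamine enzyme GlnRS (0.49, SE 0.12, adjusted p = 0.000218), the lysine enzyme LysRS (0.44, SE 0.13, adjusted p = 0.00141) and the histidine enzyme HisRS (0.32, SE 0.11, adjusted p = 0.0147) were also higher in the authors' deposited table.

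The isoleucine and cysteine enzymes fell. IleRS went from 2417 ± 125 normalized counts in Mock to 1876 ± 96.0 at Pe day 0 and stood at 2047 ± 107 at Pe day 3, and CysRS from 1345 ± 82.0 to 1042 ± 62.5 and 1171 ± 71.8. Each had a log2 fold change of -0.37 at Pe day 0 in the authors' deposited table (SE 0.11 and 0.12, adjusted p = 0.00156 and 0.00757), and each was higher with library totals (0.30). The other 13 cytosolic genes did not pass. They ran from GluProRS, a fusion of the glutamate and proline enzymes (-0.19, SE 0.12), to GlyRS, the glycine enzyme (0.23, SE 0.15), and AspRS (0.22, SE 0.10, adjusted p = 0.0619) in the authors' deposited table. On library totals all 20 cytosolic genes were higher, with a median of 0.80, while over all genes 5545 were then higher and 932 lower.

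Mitochondrial enzymes were mostly higher at Pe day 0. Of 15 genes 9 were higher and 1 lower in the authors' deposited table, while 23.0% of all 10393 genes tested were higher and 23.6% lower. The median log2 fold change of the 15 was 0.47, beside 0.03 over all genes tested, and 14 of the 15 had a value above 0. ProRS-m, the mitochondrial proline enzyme, moved most: it had 128 ± 15.9 normalized counts in Mock, 309 ± 33.7 at Pe day 0 and 125 ± 15.5 at Pe day 3. That is 2.42-fold above Mock at Pe day 0 (log2 1.28, SE 0.24, adjusted p = 4.92e-07) in the authors' deposited table. MetRS-m had 145 ± 17.8, 272 ± 30.1 and 146 ± 17.8 normalized counts in the same order and was 1.88-fold higher (0.91, SE 0.24, adjusted p = 0.000445) in the authors' deposited table. GluRS-m had 87.0 ± 12.3, 148 ± 18.4 and 78.3 ± 11.2 and was 1.71-fold higher (0.77, SE 0.27, adjusted p = 0.0119) in the authors' deposited table. In animals such as human, GluRS-m also charges the mitochondrial tRNA for glutamine, and the amidotransferase GatCAB then converts the glutamate. In all 3 genes the Pe day 0 mean stood alone, with Mock and Pe day 3 close together.

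The other risers changed less. TrpRS-m (0.60, SE 0.17), AsnRS-m (0.55, SE 0.23), AlaRS-m (0.54, SE 0.15), AspRS-m (0.51, SE 0.11), SerRS-m (0.47, SE 0.18) and LeuRS-m (0.38, SE 0.16) all passed as higher in the authors' deposited table, LeuRS-m at an adjusted p of 0.0484. Values of ArgRS-m (0.42, SE 0.21), ValRS-m (0.39, SE 0.23), TyrRS-m (0.30, SE 0.17), CysRS-m (0.30, SE 0.19) and IleRS-m (0.06, SE 0.23) did not pass in the authors' deposited table. Mitochondrial genes had fewer reads and wider errors, with a median SE of 0.19 against 0.12 for cytosolic ones. PheRS-m, the mitochondrial phenylalanine enzyme, went the other way: 986 ± 58.8 normalized counts in Mock, 784 ± 45.6 at Pe day 0 and 969 ± 57.7 at Pe day 3. Its log2 fold change was -0.33 (SE 0.12, adjusted p = 0.0153) in the authors' deposited table and 0.34 with library totals. On that scale all 15 mitochondrial genes were higher with a median of 1.13, while over all genes 5545 were higher and 932 lower.

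**Figure D2:**
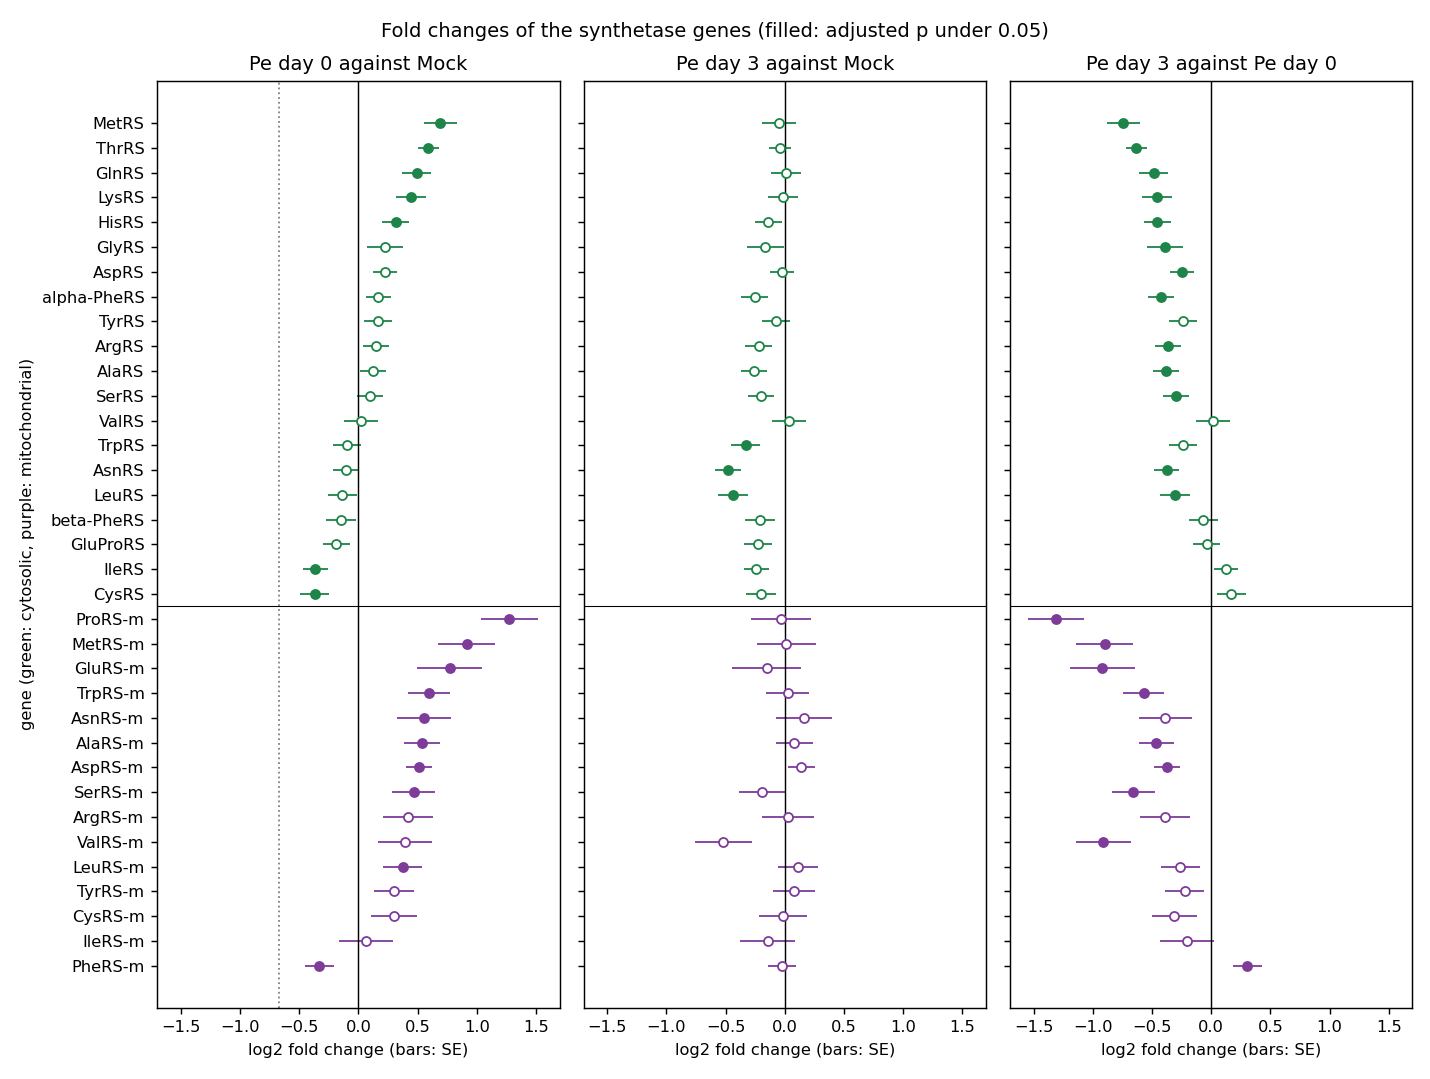
Log2 fold change of each synthetase gene with its standard error in Pe day 0 against Mock, Pe day 3 against Mock and Pe day 3 against Pe day 0 (cytosolic green, mitochondrial purple, filled where the adjusted p is under 0.05). In the panel of Pe day 0 against Mock the dotted line at -0.67 marks 0 on the scale of library totals and lies to the left of every member, and the points of Pe day 3 against Mock lie between -0.52 and 0.16.

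Setting the enzymes for the same amino acid side by side removes the scale, which cancels in the difference of 2 genes. Amino acids with a cytosolic and a mitochondrial gene gave 16 pairs; PheRS-m enters 2 of them, with the alpha and beta subunits of the cytosolic enzyme, and GluProRS also enters 2. The mitochondrial value was the higher in 14 of 16 pairs at Pe day 0 against Mock, with a median difference of 0.40 (log2). The 95% interval of the difference, which treats the errors of both genes as independent, lay above 0 in 7 pairs and below 0 in 1. ProRS-m exceeded GluProRS by 1.46 (95% interval 0.94 to 1.98) and GluRS-m exceeded it by 0.96 (0.38 to 1.54). TrpRS-m exceeded TrpRS by 0.69 (0.28 to 1.11), CysRS-m exceeded CysRS by 0.67 (0.22 to 1.12) and AsnRS-m exceeded AsnRS by 0.65 (0.16 to 1.15). LeuRS-m against LeuRS (0.51, 0.11 to 0.92) and AlaRS-m against AlaRS (0.42, 0.05 to 0.78) complete the 7. The methionine enzymes both rose, and their difference of 0.22 had an interval from -0.32 to 0.76. PheRS-m lay below alpha-PheRS by a difference of -0.50 (-0.82 to -0.18), and its difference to beta-PheRS was -0.18 (-0.522 to 0.155). Only the interval was computed for these pairs, with no p, and no correction for the number of pairs was made.

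**Figure D3:**
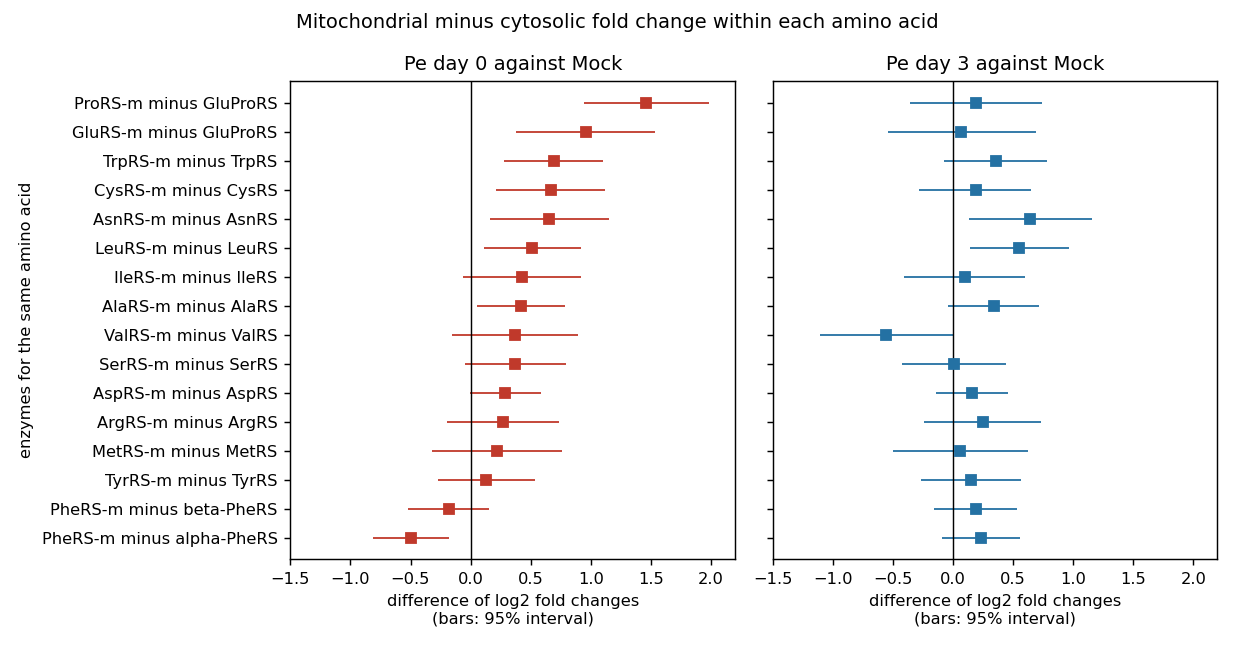
Difference of log2 fold changes, mitochondrial minus cytosolic enzyme of the same amino acid, with its 95% interval, at Pe day 0 and Pe day 3 against Mock (16 pairs). At Pe day 0 the points run from -0.50 for PheRS-m minus alpha-PheRS to 1.46 for ProRS-m minus GluProRS, and 14 lie to the right of 0.

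Another 5 amino acids had a gene in the cytosolic class alone: GlnRS, GlyRS, HisRS, LysRS and ThrRS. These 5 genes were set apart after their values had been seen. At Pe day 0, 4 of the 5 were higher and 0 lower in the authors' deposited table, with a median of 0.44, against 1 higher and 2 lower of the 15 cytosolic genes that have a -m counterpart (median 0.02). Over all genes 23.0% were higher and 23.6% lower. On library totals all 5 and all 15 were higher, as were 5545 of the 10393 genes tested, so this contrast in calls was not kept there. The exception was GlyRS (0.23, SE 0.15). The BDGP6.54 annotation gives more than 1 coding start to 5 of the 20 cytosolic genes, and 4 of those are GlyRS, HisRS, LysRS and ThrRS; the fifth is GluProRS. The longest and shortest proteins annotated are 765 and 679 residues for GlyRS, 564 and 522 for HisRS, 607 and 574 for LysRS, and 747 and 690 for ThrRS. In humans the GlyRS gene and the LysRS gene each supply the cytosol and the mitochondria through alternative forms. GlnRS has a single annotated coding start. Values per transcript were not used here, so the forms cannot be told apart.

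The second comparison placed the midgut at Pe day 3 beside Mock. Of 20 cytosolic enzymes 3 were called lower and 0 higher, and 17 did not pass, in the authors' deposited table, against 8.92% lower and 8.75% higher over the 8316 genes tested. Values lay below 0 for 18 of the 20, with a median of -0.20, beside 0.01 over all genes tested. Of those 18, AspRS and LysRS (both -0.02) lay closer to 0 than the 0.03 that library totals add. AsnRS, the asparagine enzyme, had 3742 ± 198 normalized counts in Mock, 3482 ± 182 at Pe day 0 and 2683 ± 143 at Pe day 3. It was 1.39-fold lower at Pe day 3 (-0.48, SE 0.11, adjusted p = 0.000184) in the authors' deposited table. LeuRS, the leucine enzyme (-0.44, SE 0.13, adjusted p = 0.00474), and TrpRS, the tryptophan enzyme (-0.33, SE 0.12, adjusted p = 0.0368), were lower too in the authors' deposited table. On library totals 2 of the 3 calls held, and TrpRS had a similar value that did not pass (-0.30, adjusted p = 0.0634). By the authors' DESeq2 Wald test 6 cytosolic genes had an unadjusted p under 0.05; the other 3, AlaRS, IleRS and alpha-PheRS, also had values below 0.

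Mitochondrial enzymes gave no call at Pe day 3 against Mock, where 8.75% of all genes tested were higher and 8.92% lower. Of the 15 mitochondrial genes 0 were higher and 0 lower in the authors' deposited table, with a median of 0.01. The DESeq2 Wald test left 1 of them with an unadjusted p under 0.05, ValRS-m, the valine enzyme, at -0.52 (SE 0.24, adjusted p = 0.137) in the authors' deposited table. Its group means were 162 ± 18.8 normalized counts in Mock, 213 ± 22.6 at Pe day 0 and 113 ± 13.8 at Pe day 3, the lowest at Pe day 3. Within amino acids the mitochondrial value was the higher in 15 of 16 pairs, by a median of 0.19. Intervals lay above 0 for AsnRS-m against AsnRS (0.64, 0.13 to 1.16) and LeuRS-m against LeuRS (0.55, 0.14 to 0.97), and narrowly below 0 for ValRS-m against ValRS (-0.56, -1.11 to -0.002). The days of Pe share their Mock libraries, so the values of both comparisons are not independent.

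Between the Pe groups, most synthetase genes were lower at day 3 than at day 0. The table holds no such column, and the comparison was made from the deposited values with the part of the error shared through Mock removed. Of 20 cytosolic genes 13 were lower and 0 higher, and of 15 mitochondrial genes 8 were lower and 1 higher, where 25.3% of the 8316 genes tested were lower and 27.4% higher. The medians were -0.34 and -0.39, beside -0.01 over all genes tested. With library totals all 35 members were lower at day 3 than at day 0, and over all genes 778 were then higher and 5248 lower. ProRS-m fell 2.48-fold (log2 -1.31, SE 0.24, adjusted p = 2.16e-07, Wald test). GluRS-m (-0.92, SE 0.27), ValRS-m (-0.91, SE 0.23) and MetRS-m (-0.90, SE 0.24) fell 1.89-, 1.88- and 1.87-fold. Among cytosolic genes MetRS (-0.74, SE 0.14, adjusted p = 3.56e-07) and ThrRS (-0.63, SE 0.09, adjusted p = 2.49e-11) fell most. All 5 cytosolic genes without a -m counterpart were lower, from -0.39 for GlyRS to -0.63 for ThrRS. AsnRS (-0.38, SE 0.11) and LeuRS (-0.30, SE 0.125), the enzymes lower than Mock at day 3, were lower than at Pe day 0 as well. PheRS-m was the member that was higher at day 3 (0.31, SE 0.12, adjusted p = 0.0228), a value that became -0.33 with library totals.

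Part of the members were not called. Of the cytosolic genes GluProRS, TyrRS, ValRS and beta-PheRS passed in none of the 3 comparisons, and of the mitochondrial ones ArgRS-m, CysRS-m, IleRS-m and TyrRS-m. This does not show that they were unchanged: ArgRS-m stood at 1.34-fold at Pe day 0 in the authors' deposited table, above the 1.24-fold of HisRS, which passed. On library totals all 8 were higher than Mock at Pe day 0, as were 5545 of the 10393 genes tested. ValRS had 2206 ± 157 normalized counts in Mock, 2242 ± 158 at Pe day 0 and 2264 ± 161 at Pe day 3, the closest set of means among the cytosolic genes. Its log2 fold changes were 0.02 (SE 0.145) at day 0 and 0.04 (SE 0.145) at day 3 in the authors' deposited table; on library totals it was higher than Mock at Pe day 0 and lower at Pe day 3 than at Pe day 0. The alpha and beta subunits of the cytosolic phenylalanine enzyme, which act together as 1 protein, had 1272 ± 68.7 and 1392 ± 85.4 normalized counts in Mock, 1430 ± 74.1 and 1258 ± 75.5 at Pe day 0, and 1065 ± 58.2 and 1201 ± 74.1 at Pe day 3. Alpha-PheRS fell between the Pe groups (-0.42, SE 0.11, adjusted p = 0.000301), whereas beta-PheRS stood at -0.07 (SE 0.12); the difference between the subunits was not tested.

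Counts were also taken by catalytic fold and by complex. Synthetases belong to 2 unrelated structural classes, and at Pe day 0 6 of 18 class I genes were higher and 2 lower (median 0.30), and 8 of 16 class II genes higher and 1 lower (median 0.27) in the authors' deposited table; GluProRS, which joins a domain of each, is in neither. Over all genes 23.0% were higher and 23.6% lower. On library totals all 18 and all 16 were higher, as were 5545 of the 10393 genes tested. The 8 enzymes that form the multi-synthetase complex in animals had 3 higher and 1 lower (median 0.18), and the 12 cytosolic genes outside it 2 and 1 (median 0.11). With library totals all 8 and all 12 were higher. Of the scaffold genes, AIMP1 (-0.16, SE 0.14), AIMP2 (-0.25, SE 0.12) and AIMP3 (-0.07, SE 0.19) did not pass at Pe day 0 in the authors' deposited table and were all higher with library totals. At Pe day 3 AIMP1 (-0.43, SE 0.15, adjusted p = 0.0222) and AIMP2 (-0.44, SE 0.12, adjusted p = 0.00411) were lower than Mock in the authors' deposited table, and AIMP3 (-0.19, SE 0.19) was not called.

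Genes that act beside the synthetases were followed through lists. Of 10 partners of mitochondrial charging and translation found in the table, 2 were higher and 2 lower at Pe day 0 (median 0.13) in the authors' deposited table, shares that do not exceed the 23.0% and 23.6% over all genes. With library totals 9 were higher, as were 5545 of the 10393 genes tested. Slimp, a paralog of the mitochondrial seryl enzyme found in insects, rose 4.14-fold (2.05, SE 0.21, adjusted p = 8.28e-22) in the authors' deposited table, with 111 normalized counts in Mock, 457 at Pe day 0 and 142 at Pe day 3. The elongation factor genes mEFTu1 (-0.27, SE 0.09) and mEFTu2 (-0.48, SE 0.14), whose products carry charged tRNA to the mitochondrial ribosome, were lower in the authors' deposited table, though with library totals mEFTu1 was higher (0.40) and mEFTu2 stood at 0.19. The amidotransferase genes GatA (0.19, SE 0.21) and GatB (-0.20, SE 0.19) did not pass at Pe day 0 in the authors' deposited table and passed as higher with library totals.

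Genes of tRNA processing and ligation rose at Pe day 0 in 6 of 9 cases and fell in 1 (median 0.89) in the authors' deposited table. Over all genes tested 23.0% were higher and 23.6% lower at Pe day 0. With library totals 8 of the 9 were higher and 0 lower, beside 5545 and 932 of all 10393 genes. RtcB, the ligase that joins the exons of a tRNA after splicing, was higher by 2.02 (SE 0.14, adjusted p = 1.15e-48) and its activator Archease by 1.38 (SE 0.15) in the authors' deposited table. JhI-1, the fly RNase Z that trims the 3' ends of tRNA precursors (1.95, SE 0.16), and La, which binds the ends of fresh RNA polymerase III transcripts (1.51, SE 0.13), were higher there too in the authors' deposited table. Dtd, a deacylase that frees tRNA from D-amino acids, was lower (-1.14, SE 0.30) in the authors' deposited table. It stood at -0.47 and did not pass on library totals. At Pe day 3 against Mock 0 of the 9 passed in either direction in the authors' deposited table. Over all genes tested 8.75% were higher and 8.92% lower at Pe day 3. Of 8 cytosolic elongation and termination genes 7 were lower and 0 higher at Pe day 0 (median -0.60) in the authors' deposited table. The shares over all genes in that comparison were 23.6% lower and 23.0% higher. The direction of this list was not kept with library totals. There 2 of the 8 were higher and 0 lower, beside 5545 and 932 of all 10393 genes. eEF1beta (-0.72, SE 0.08) and eEF1delta (-0.69, SE 0.09), subunits of the factor that recharges eEF1A with GTP, were lower in the authors' deposited table and stood at -0.06 and -0.03 with library totals.

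**Figure D4:**
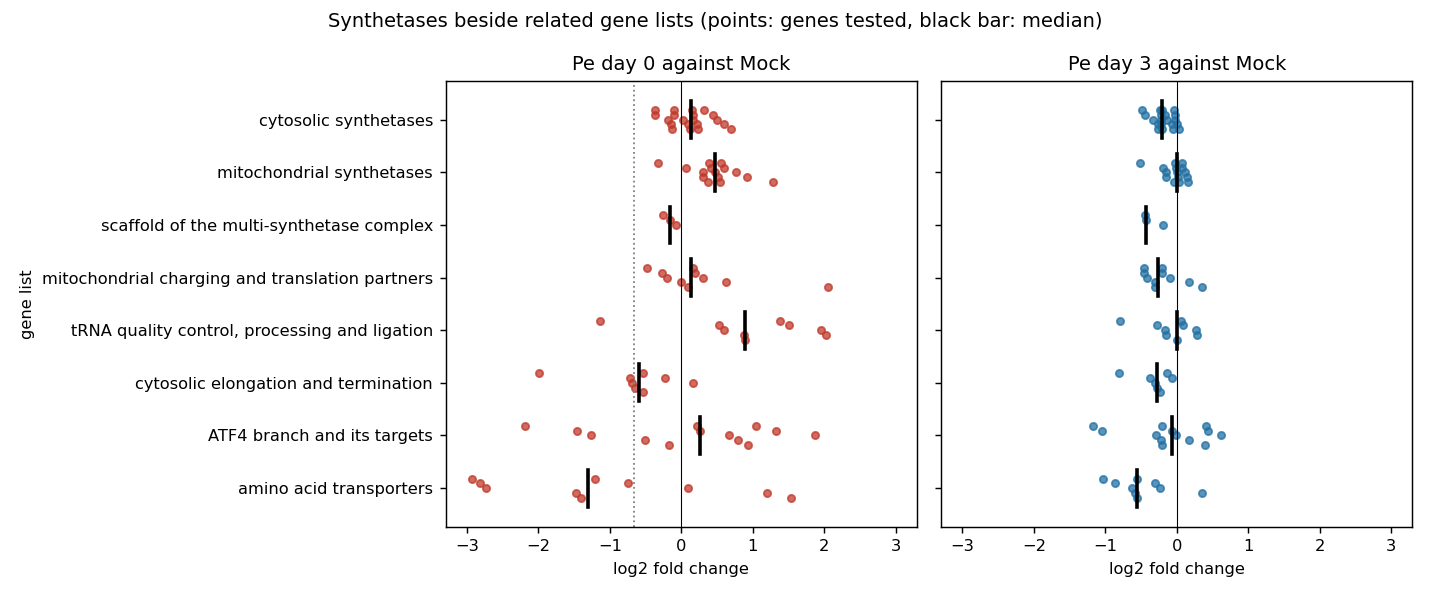
Log2 fold change of each tested gene (points) and the median (black bar) for the cytosolic and mitochondrial synthetases and 6 lists of related genes, at Pe day 0 and Pe day 3 against Mock; in the Pe day 0 panel the dotted line at -0.67 is 0 on the scale of library totals. At Pe day 0 the medians of the cytosolic and mitochondrial synthetases are 0.13 and 0.47, that of tRNA processing 0.89 and that of elongation -0.60.

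The tissue label was checked against gut genes: the enterocyte genes mesh and Myo31DF averaged 31920 and 7384 normalized counts in the authors' deposited table. Against Mock, Pe day 0 had mesh (1.26, SE 0.13) and nub (1.19, SE 0.11), a regulator of enterocyte identity, higher and Myo31DF (-0.44, SE 0.13) lower in the authors' deposited table; library totals put Myo31DF at 0.22 with no call. Of the progenitor genes, Dl, the Notch ligand of intestinal stem cells, was higher (1.64, SE 0.27) and esg, a stem cell and enteroblast factor, lower (-1.25, SE 0.18) in the authors' deposited table, and both calls were kept with library totals. Markers of other cell types also differed. All 5 visceral muscle genes were lower (-1.40 to -1.25; median -1.31) and all 4 enteroendocrine genes lower (median -1.02) in the authors' deposited table, and 5 and 2 were lower with library totals. Over all 10393 genes tested 23.6% were lower in the authors' deposited table, and 932 genes with library totals. The yolk protein genes Yp1 and Yp2 of the fat body were lower by both scales. Lsp2, also of the fat body (-1.02, SE 1.72), and the haemocyte genes Hml and NimC1 passed by neither. The part of these cell types in the synthetase values was not tested, and in whole midguts fewer cells of a type and less RNA per cell cannot be told apart. Exons of 16 of the 35 members overlap those of another gene, 5 of them over more than 10% of their bases: besides AspRS these are GluProRS (16.6%), CysRS-m (14.3%), SerRS-m (13.9%) and ArgRS-m (11.8%), each with a gene on the opposite strand.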

How the data were processed

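Total RNA of midguts was sequenced in 6 libraries. Per the submitters' processing notes, CASAVA 1.8, fastp 0.19.5, Salmon 0.11.3, DESeq2 1.22.0 and genome build BDGP6 were used. The authors deposited 1 table of 14026 genes. Its signal column, as deposited, is the mean over all libraries of counts divided by size factors. The log2 fold changes and their standard errors were made by the authors between groups and, per the file headers, carry the column names of DESeq2. The score column is the Wald statistic of the authors' test. The authors' p-values are deposited raw and after Benjamini-Hochberg adjustment. A test on counts of each library had been planned; with no such columns, the deposited tests were used. Columns of values of single libraries left unused numbered 0.

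Size factors were estimated from genes with a single read, group means were solved from the mean and both fold changes, and dispersions from the standard errors. The Pe groups were compared by a Wald test without the error of Mock, with Benjamini-Hochberg adjustment over 8316 genes (Python 3.11.15, numpy 2.4.6, pandas 2.3.3, scipy 1.17.1). Tested on simulated data for this comparison over 8316 genes, it recovered 52.2% of 1.5-fold, 80.6% of 2-fold and 95.5% of 4-fold changes and called 0.136% of unchanged genes. In the simulation 8116 genes were unchanged, Pe day 0 equalled Mock, and dispersions and size factors were known. In the data 27.4% of genes were called higher and 25.3% lower and dispersions were estimated, so these rates do not carry over to them. Library totals, totals without the 20 largest genes, centring on the median gene, other minimum means and an adjusted p under 0.01 were tried. Any of the 35 members could be named, with full statistics for those of smallest p in each class and direction and those not moving with their class. Of other lists, those of smallest p in each direction were to be named. Further list genes, among them crc, GatA, GatB, La and NAAT1, were named outside that rule. Members and lists were chosen with earlier results of these data known. Promoter sequences were not used here.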

Additional observations from a re-analysis of the deposited data

Results flagged for a closer look

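The day 0 Mock shared by both comparisons cancels in Pe day 3 against Pe day 0, which sets the Pe groups alone against each other. There, 22 of the 35 members differed (log2, adjusted p under 0.05, Wald test from the deposited values). Of these 21 were lower and 1 higher at day 3, while 25.3% of all 8316 genes tested were lower and 27.4% higher. Cytosolic genes were lower at day 3 by these differences: MetRS -0.74, ThrRS -0.63, GlnRS -0.49, HisRS -0.46, LysRS -0.46, alpha-PheRS -0.42, GlyRS -0.39, AlaRS -0.38, AsnRS -0.38, ArgRS -0.37, LeuRS -0.30, SerRS -0.30 and AspRS -0.24. Mitochondrial genes were lower by ProRS-m -1.31, GluRS-m -0.92, ValRS-m -0.91, MetRS-m -0.90, SerRS-m -0.66, TrpRS-m -0.57, AlaRS-m -0.46 and AspRS-m -0.37. PheRS-m was higher by 0.31. Age differs between these groups along with the day, and their parts cannot be told apart.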

How the results depend on the processing

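Over 665 values of members under alternatives, 568 were counted as the same, 27 lost the call, 47 gained one and 23 reversed. A change of direction counted as a reversal only where the main or the alternative value was called. The 568 therefore include uncalled values that changed sign. With library totals, 20 cytosolic genes were higher and 0 lower at Pe day 0, and 15 and 0 mitochondrial. Without the 20 largest genes these counts were 18 and 0, and 14 and 0. Over all genes 5545 were higher and 932 lower with library totals, and 4721 and 1241 without the 20 largest. Between the Pe groups with library totals, 20 cytosolic genes were lower, and 0 mitochondrial higher and 15 lower (0 and 14 without the 20 largest). Over all genes 778 were then higher and 5248 lower, and 1169 and 4253 without the 20 largest. At an adjusted p under 0.01, 5 mitochondrial genes were higher and 0 lower at Pe day 0, and 0 were higher between the Pe groups. With an error that ignores the shared Mock, 8 cytosolic genes were lower, and 0 mitochondrial higher and 4 lower. Counts over all genes were not taken at that threshold or with that error. Reversals at Pe day 0 with library totals, and without the 20 largest genes, were GluProRS 0.48 and 0.31, TrpRS 0.57 and 0.40, IleRS 0.30 and 0.13, CysRS 0.30 and 0.13, beta-PheRS 0.52 and 0.35, AsnRS 0.56 and 0.39, PheRS-m 0.34 and 0.17, and LeuRS 0.53 and 0.36. Between the Pe groups they were ValRS -0.62 and -0.41, IleRS -0.51 and -0.30, PheRS-m -0.33 and -0.12, and CysRS -0.47 with library totals. These follow from the shift that the scale adds to every gene. No paired analysis was possible because the table holds no values per library, and leaving out replicates was not run for the same reason. The median standard error at Pe day 0 was 0.19 for mitochondrial and 0.12 for cytosolic genes; AspRS-m (0.111) and PheRS-m (0.120) lay below GlyRS (0.153). What depth adds to these errors was not tested.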

Other observations

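Genes that supply amino acids or respond to their lack were followed beside the synthetases. Of 10 amino acid transporter genes 2 were higher and 6 lower at Pe day 0 (median -1.30) in the authors' deposited table, and 3 and 5 with library totals. Over all genes tested 23.0% were higher and 23.6% lower, and 5545 and 932 genes with library totals. NAAT1 (-2.93), sbm (-2.82, SE 0.16) and slif (-1.40) were lower, and CG1139 (1.53, SE 0.36) and mnd (1.20) higher, in the authors' deposited table. Of 13 genes of the ATF4 branch, which answers uncharged tRNA in animals, 6 were higher and 4 lower at Pe day 0 (median 0.26) in the authors' deposited table, and 9 and 3 with library totals. PEK, a kinase of the translation factor eIF2, was higher (0.93, SE 0.11), and aay, an enzyme of serine synthesis, lower (-2.19, SE 0.25) in the authors' deposited table. Gcn2, another kinase of eIF2, was lower there (-0.51, SE 0.18) and stood at 0.15 with no call on library totals. Thor (-1.26, SE 0.15) and Sesn (-1.46, SE 0.19) were lower by both scales. Nmdmc (1.87, SE 0.23), chrb (1.33, SE 0.2), trbl (1.05, SE 0.13) and PPP1R15 (0.67, SE 0.13) were higher by both. AsnS, which makes asparagine, was higher at Pe day 0 (0.79) and lower at Pe day 3 (-1.04, SE 0.16) in the authors' deposited table. The gene of ATF4 itself, crc, stood at -0.17 (SE 0.15) at Pe day 0 in the authors' deposited table and did not pass. Library totals put it at 0.50, higher than Mock (adjusted p = 0.00146, Wald test with the authors' DESeq2 standard error).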
